A study of Mus musculus with 6 samples.

Results

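The genes described here encode 4 histone deacetylases of class I and 4 corepressors that bring such enzymes to DNA: Hdac1, Hdac2, Hdac3, Hdac8, Ncor1, Ctbp1, Ctbp2 and Sin3a. They were chosen by name for what their proteins do, and are 8 of the 22921 genes with a curated RefSeq transcript that were placed on the mouse mm9 assembly. ChIP-seq, in which an antibody enriches the DNA bound by a protein before sequencing, was carried out in wild-type C57BL/6 mouse primary myotubes with an antibody against the transcription factor Sox6 or against RNA polymerase II (Pol II), and the DNA before enrichment (input) was sequenced as the background. The cells were limb myoblasts of fetuses at day 18.5 (E18.5), with a passage number of 17, that were switched for 48 h to a medium with 2% horse serum so that they fused into myotubes. All 6 libraries, 2 of each kind, came from this same kind of cell, so the only comparisons the design allows are an antibody against input and one place in the genome against another. The Pol II antibody (4H8) recognizes the repeated tail of the largest subunit, and its signal counts polymerase bound to DNA, not mRNA. The study describes the ChIP experiments of each antibody as independent. No source says whether replicates 1 and 2 came from separate cultures or animals, so the spread between libraries may be technical. The limma test used below takes its spread largely from all genes together, and at Pol II start sites almost wholly. Its p-values thus measure a pooled spread, not the agreement of replicates at each gene.

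Histone deacetylases of class I remove acetyl groups from histone tails, which goes with tighter packing of DNA and lower transcription. Hdac1 and Hdac2 are the closely related enzymes of the Sin3, NuRD and CoREST complexes, Hdac3 is the enzyme of the complex built on Ncor1, and Hdac8 works outside these complexes. None of them binds DNA on its own. Sin3a is the scaffold of the Sin3 complex, and Ctbp1 and Ctbp2 are NAD-binding corepressors that link DNA-bound repressors to CoREST proteins and deacetylases. Sox6 has no known repressor domain of its own and lowers transcription through partners, of which Hdac1 and Ctbp2 are known examples. In muscle precursor cells Hdac1 is known to hold back MyoD before differentiation. The data bear on whether the genes of these partners carried Pol II in myotubes and whether Sox6 lay at those genes.

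The libraries held 2985437 and 1468604 aligned reads for Sox6, 1538757 and 2762155 for Pol II, and 21973495 and 24249850 for input, in the order of the replicates. Depth decided how small a difference could be seen. A window of 1 kb on either side of a start site, called the start window here, held from 0 to 24 ChIP reads at any of the 8 genes, while gene bodies, counted from 1 kb past the start site to the gene end, held from 16 to 489. Levels are given as RPM, which are reads scaled to the library total, or as RPKM, which are RPM divided by the length in kb, and differences as log2 of ChIP over input. The cells carried the marks of muscle. All 9 of 9 genes of differentiated muscle that were examined, among them Myog, Ckm and Acta1, had more Pol II than input at the start window and over the body, with median log2 differences of 5.0 and 5.32. Of 14 marker genes of fibroblasts, adipocytes, endothelium, blood and neurons, none of those tested had more Pol II than input in either place. Of the genes of proliferating and satellite cells, 3 of 4 were called higher at the start (Pax7, Myf5 and Top2a). Over the body Pax7 and Myf5 were called higher (1.18 to 5.54 RPKM) and Mki67 and Top2a lower (0.184 to 0.330). These marker calls used library totals and were not repeated on other scales. Scaling to reads more than 20 kb from genes raised the Pol II median of all genes from 0.76 to 2.12 at starts. Over bodies it rose from 0.10 to 1.46.

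The genes lie on 8 different chromosomes. In mm9, Hdac1 spans chr4:129193348-129219957 on the minus strand, Hdac2 chr10:36694350-36721695 on the plus strand, Hdac3 chr18:38096625-38114642 on the minus strand and Hdac8 chrX:99479978-99700698 on the minus strand. Ncor1 spans chr11:62129928-62270834, Ctbp1 chr5:33590372-33617618 and Ctbp2 chr7:140179304-140315050, all on the minus strand, and Sin3a chr9:56923145-56976173 on the plus strand. Their lengths ran from 18.0 kb at Hdac3 to 220.7 kb at Hdac8.

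Pol II relative to input at the start sites differed widely among the 8 genes. Ctbp1, Ncor1 and Ctbp2 had at least 5.66 times the mean input level in each Pol II library, whereas the 4 deacetylase genes and Sin3a lay between 0.706 and 3.17 times. With limma's moderated test and Benjamini-Hochberg adjustment over all 21739 genes tested, 6 of the 8 genes had more Pol II than input and none had less, where 40.9% of all genes tested were called higher and 1.37% lower. The median log2 difference of the 8 genes was 1.27, beside 0.76 over all genes.

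Among the corepressors, the Ctbp1 start window held 17 and 21 Pol II reads against 17 and 23 input reads, from input libraries that were many times deeper. The Pol II libraries stood at 12.8 and 8.83 times the mean input level, with a log2 difference of 3.42 (SE 0.36, 95% interval 2.72 to 4.13, limma adjusted p = 3.86e-20), larger than at 96.4% of all genes. At Ncor1, 14 and 24 Pol II reads stood against 25 and 26 input reads, a difference of 3.02 (SE 0.34, limma adjusted p = 1.09e-17). The start of Pigl, a gene on the opposite strand, lies at -953 bp from the Ncor1 start, so that the windows share reads, and the Pigl start window had a log2 difference of 2.52 (limma adjusted p = 1.45e-14). Over the Pigl body Pol II was below input (log2 -0.38, limma adjusted p = 0.0296), but above it (0.97, limma adjusted p = 0.000114) when libraries were scaled to reads more than 20 kb from genes. At Ctbp2 the counts were small in every library, 3 and 4 for Pol II and 4 and 8 for input. Its Pol II level (0.974 and 0.724 RPKM) had the lowest mean of the 8 genes, as did its input (0.0910 and 0.165), and the difference of 2.84 had a wide interval (1.25 to 4.44, limma adjusted p = 0.00143). All 7 of these Pol II reads lay upstream of the start, but so did 3 of 4 and 6 of 8 input reads. An Fgfr2 transcript model starts 17 bp away on the same strand, so reads of these genes cannot be told apart there. Sin3a held 6 and 16 Pol II reads against 33 and 54 of input, a difference of 1.44 (SE 0.35, limma adjusted p = 0.000132). The noncoding gene 2700012I20Rik starts 675 bp past the Sin3a start on the opposite strand, so the windows share reads.

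The deacetylase genes lay near the middle of all genes. Hdac1 held 3 and 8 Pol II reads against 18 and 43 of input (log2 1.11, SE 0.47, limma adjusted p = 0.0464), and Hdac3 4 and 10 against 33 and 39 (1.08, SE 0.41, limma adjusted p = 0.0207). For both, each Pol II library was above each input in RPM, the closest pair being Pol II 1 (1.95) and Input 2 (1.77) at Hdac1. Rell2, a gene on the opposite strand, starts at -571 bp from the Hdac3 start, so these windows share reads. Hdac2 held 7 and 5 reads against 37 and 37, a difference of 0.94 that did not pass the threshold (95% interval 0.13 to 1.75, limma adjusted p = 0.0534). Hdac8 held 5 and 2 against 17 and 31, and here Pol II 2 (0.724 RPM) lay below both inputs (0.774 and 1.28), so the groups overlapped (0.82, 95% interval -0.30 to 1.95, limma adjusted p = 0.268). The 4 deacetylase genes ranked between the 51.1 and 56.9 percentiles of the log2 difference over all genes. These values depend on the scale: dividing by the median of ratios over all genes in place of library totals moved the median of all genes from 0.76 to -0.81, and then Ncor1 and Ctbp1 alone of the 8 were called higher, while Hdac1, Hdac2, Hdac3, Hdac8 and Sin3a had values below 0 that were not called. Over all genes that scaling turned 8887 higher and 298 lower calls into 3163 and 6890.

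The promoters of Ctbp1 and Hdac8, the genes with the largest and the smallest difference of Pol II from input at the start, are shown because they also differed in base composition. The 250 bases before each start, read 5′ to 3′ on the gene's strand from mm9, were chr5:33617619-33617868 (minus strand) for Ctbp1 and chrX:99700699-99700948 (minus strand) for Hdac8, with CpG dinucleotides in capitals.
Ctbp1: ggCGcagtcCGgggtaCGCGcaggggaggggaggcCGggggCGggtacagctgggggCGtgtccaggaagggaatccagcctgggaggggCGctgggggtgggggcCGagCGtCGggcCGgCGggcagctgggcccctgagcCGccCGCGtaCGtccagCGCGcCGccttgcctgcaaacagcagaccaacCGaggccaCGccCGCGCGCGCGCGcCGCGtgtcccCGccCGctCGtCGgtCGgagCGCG
Hdac8: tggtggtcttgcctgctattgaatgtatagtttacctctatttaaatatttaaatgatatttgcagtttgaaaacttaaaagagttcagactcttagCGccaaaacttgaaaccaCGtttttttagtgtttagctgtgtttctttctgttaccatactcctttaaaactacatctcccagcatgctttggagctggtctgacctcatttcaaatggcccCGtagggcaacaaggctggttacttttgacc
Ctbp1 had 37 CpG dinucleotides and 78.8% G and C, and Hdac8 had 3 and 38.4%. The other 6 genes ranged from 6 CpG and 44.0% at Sin3a to 34 and 73.6% at Ncor1. Their CpG counts and log2 differences of Pol II at the start did not follow the same order. They were 6 and 1.44 at Sin3a, 16 and 1.08 at Hdac3 and 17 and 2.84 at Ctbp2. Hdac1 had 24 and 1.11, Hdac2 27 and 0.94, and Ncor1 34 and 3.02. A link between base composition and Pol II was not tested. The stretches of Sin3a, Ncor1 and Ctbp2 overlap annotated exons. The medians over all 22921 promoters were 9 and 54.8%. The Sox sites ACAAAG and ACAATG, searched on both strands, were in none of the 8 promoters, while 22.5% of all promoters held one. The E-boxes CAGCTG and CAGGTG, bound by MyoD and its relatives, were in the promoters of Ctbp1 (2 matches) and Hdac3 (1 match) and in 26.7% of all promoters. A match of letters is a description of the sequence, not of binding.

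Over the gene bodies, where counts were larger, Pol II told the 8 genes apart more clearly. The levels of Ctbp1 were 3.14 and 2.74 RPKM in the Pol II libraries, at the 93.9 and 92.2 percentiles of all genes. Below it followed, by mean level, Hdac2 (1.23 and 1.47), Ncor1 (1.36 and 1.27), Hdac1 (1.17 and 1.36), Ctbp2 (1.14 and 1.28), Hdac3 (0.993 and 1.11) and Sin3a (1.01 and 0.905). Each neighbor in this order overlapped the next, except that both values of Ctbp2 lay just above both of Hdac3, so neighbors on either side of that gap were not told apart. Hdac8 stood apart at the bottom with 0.281 and 0.277 RPKM. The median of all genes was 0.477 and 0.472, and Actb, the housekeeping gene with the cytoskeletal product beta-actin, had 24.1 and 33.9.

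Against input, 7 of the 8 genes had more Pol II over the body and 1 had less, where 37.6% of the 19235 genes tested were called higher and 26.1% lower. The calls over all genes, 7224 higher and 5016 lower, became 12423 and 345 when libraries were scaled to reads more than 20 kb from genes, and 6281 and 6148 with the median of ratios. The median log2 difference of the 8 genes was 0.93 and that of all genes 0.10, which moved to 1.46 and -0.12 with those scalings. Ctbp1 held 127 and 199 Pol II reads against 427 and 502 of input, a difference of 1.95 (SE 0.12, limma adjusted p = 1.38e-06). For Ncor1 the difference was 1.08 (SE 0.08, 292 and 489 reads against 1948 and 2047) and for Ctbp2 1.04 (SE 0.09, 236 and 475 against 1668 and 1988). The annotated Fgfr2 model overlaps 135730 of the 135747 bp of Ctbp2 on the same strand. Over the body of that model, which is much longer, the difference was smaller, 0.59. That value includes the reads of Ctbp2 and is not one of Fgfr2 alone. The difference was least for Sin3a among the called genes (0.51, SE 0.11, 81 and 130 reads against 803 and 819, limma adjusted p = 0.00395). On the opposite strand, the noncoding gene 2410133F24Rik overlaps 28417 bp of Sin3a and the pseudogene Gm12276 301 bp of Ncor1. Reads of overlapping genes cannot be told apart there.

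Among the deacetylases, Hdac1 held 46 and 96 Pol II reads against 312 and 361 of input and had a difference of 1.16 (SE 0.14, limma adjusted p = 0.000116). Hdac2, which with Hdac1 forms the catalytic core of the same complexes, had 0.82 (SE 0.14, 50 and 107 against 458 and 477, limma adjusted p = 0.000744), and Hdac3 had 0.74 (SE 0.17, 26 and 52 against 234 and 266, limma adjusted p = 0.00423). Hdac8 was the exception. Its body held 95 and 168 Pol II reads against 2018 and 2079 of input, levels of 0.281 and 0.277 RPKM against 0.418 and 0.390, and both Pol II libraries were below both inputs. The log2 difference was -0.53 (SE 0.09, limma adjusted p = 0.000783), but it became 0.83 (limma adjusted p = 2.79e-05) when libraries were scaled to reads more than 20 kb from genes, so the sign holds for library totals and not on that scale. Hdac8 is the one gene of the 8 on chromosome X, where the median gene had 0.169 and 0.159 RPKM of Pol II and 0.317 and 0.296 of input, against 0.499 and 0.491 of Pol II and 0.493 and 0.503 of input on the autosomes. The part of the chromosome in the low level was not tested. Gm14858, a noncoding gene on the opposite strand, overlaps 80860 bp of Hdac8, and reads there cannot be told apart.

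The calls over bodies were steady for most of the 8 genes. Over 15 alternatives, 7 genes were called every time, Hdac8 once in the other direction, and Sin3a in 14. At the start sites, Ctbp1 and Ncor1 were called in all 17 alternatives, Sin3a in 16 of 17, Ctbp2 in 12 of 15, Hdac3 in 10 of 17 and Hdac1 in 8 of 17. Leaving out Input 1 or Input 2 left 3 of the 8 genes called at the start sites, where 33.5% and 37.1% of all genes were called higher. With the replicate number as a block, Hdac1 was not called there (limma adjusted p = 0.0709). Reads were kept by the submitters where they aligned to 1 place. The Hdac1 exons (2038 bp) held fewer of them than its introns also in input, 0.156 and 0.223 against 0.582 and 0.616 RPKM. In both inputs exons were lower at other genes too, such as Hdac8 (0.118 and 0.320 against 0.419 and 0.391) and Ctbp1 (0.424 and 0.531 against 0.754 and 0.800). At Hdac3 and Sin3a they were lower in Input 1 alone. Introns make up most of each of the 8 models, so the values rest mainly on introns. The part of unique alignment was not tested.

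**Figure D1:**
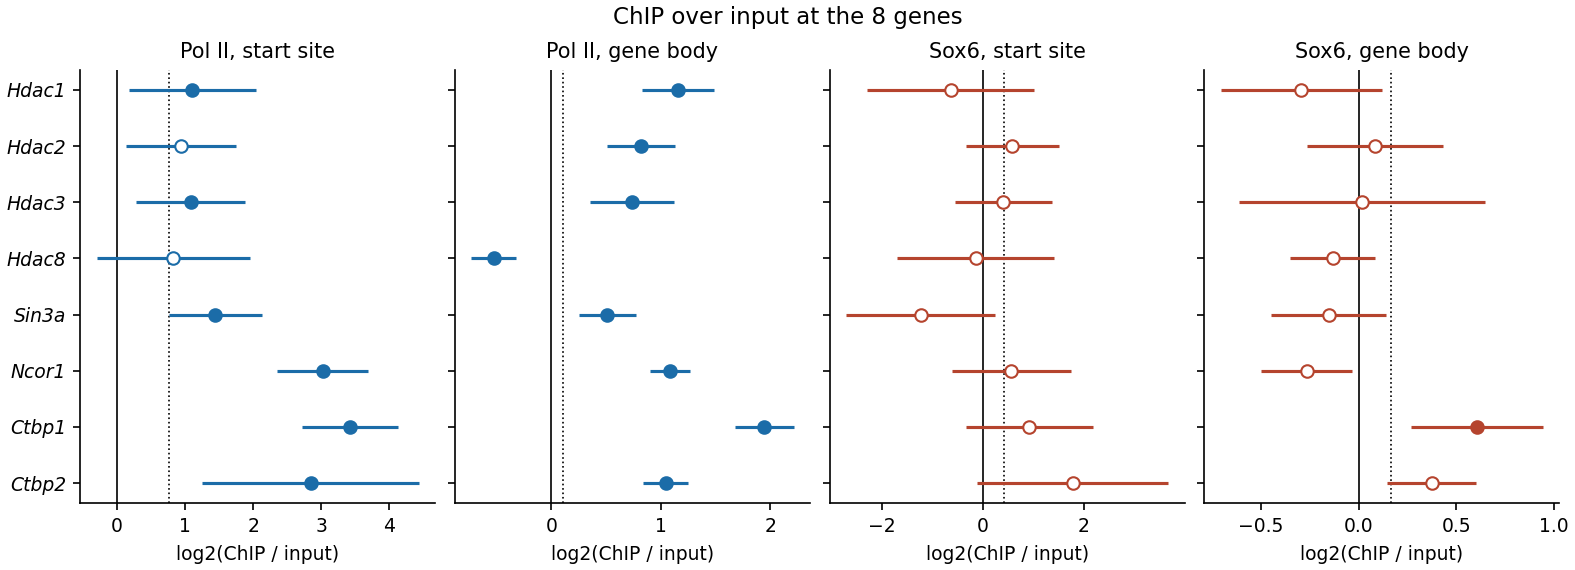
Log2 of ChIP over input for the 8 genes in each comparison, with 95% intervals from limma; filled points passed an adjusted p of 0.05, and the dotted line is the median over all genes. For Pol II the body separated Ctbp1 (1.95) and Hdac8 (-0.53) from the rest, and for Sox6 most intervals covered 0.

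Pol II was spread unevenly along 3 of the corepressor genes. In Ctbp1 the first 10% of the gene (2.72 kb) held 43 of 140 Pol II reads in replicate 1 and 60 of 216 in replicate 2, or 30.7% and 27.8%. In input that stretch held 11.7% and 10.3%. Among 4853 genes of at least 10 kb with at least 50 reads in each Pol II library, Ctbp1 lay at the 98.0 percentile in both, where the median share was 11.8% and 11.7%. The level there was 10.3 and 7.97 RPKM, and in the remaining 9 parts of the gene it lay between 0.954 and 4.29. Of the reads in the start window, 13 of 17 and 17 of 21 were downstream of the start, against 8 of 17 and 12 of 23 in input. In the kilobase after the start alone, a window chosen after the data had been seen, Ctbp1 had a log2 difference of 4.06 (limma adjusted p = 4.21e-19) and Ncor1 one of 3.13 (limma adjusted p = 3.82e-09), and 4 of the 8 genes were called higher, where 41.9% of all genes were.

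Of the 10 equal parts of Ctbp2 and of Ncor1, the last held the most Pol II reads. At Ncor1 the start window was denser still, at 4.55 and 4.34 RPKM against 2.63 and 2.18 in the last part. The first part of Ncor1 is 14.1 kb long, so it does not resolve the start. The last 10% of Ctbp2 held 53 of 236 and 104 of 475 Pol II reads (22.5% and 21.9%), with 12.3% and 12.8% in input. The last 10% of Ncor1 held 57 of 296 and 85 of 505 (19.3% and 16.8%), with 10.1% and 11.4% in input. The median gene had 10.4% in both Pol II libraries. Ttc19, a gene on the opposite strand, overlaps the last 12026 bp of Ncor1 and had a body difference of 1.17 (limma adjusted p = 2.51e-05), and since the libraries keep no strand of the transcript, the reads of the overlapping genes cannot be told apart. Of the deacetylase genes, Hdac2 and Hdac8 met the minimum of reads. Their last 10% held 17.0% and 13.8% of Pol II reads at Hdac2 and 6.06% and 7.10% at Hdac8. The last 10% of Sin3a held 9 and 24 Pol II reads, at 1.10 and 1.64 RPKM against 0.712 and 0.630 in input.

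**Figure D2:**
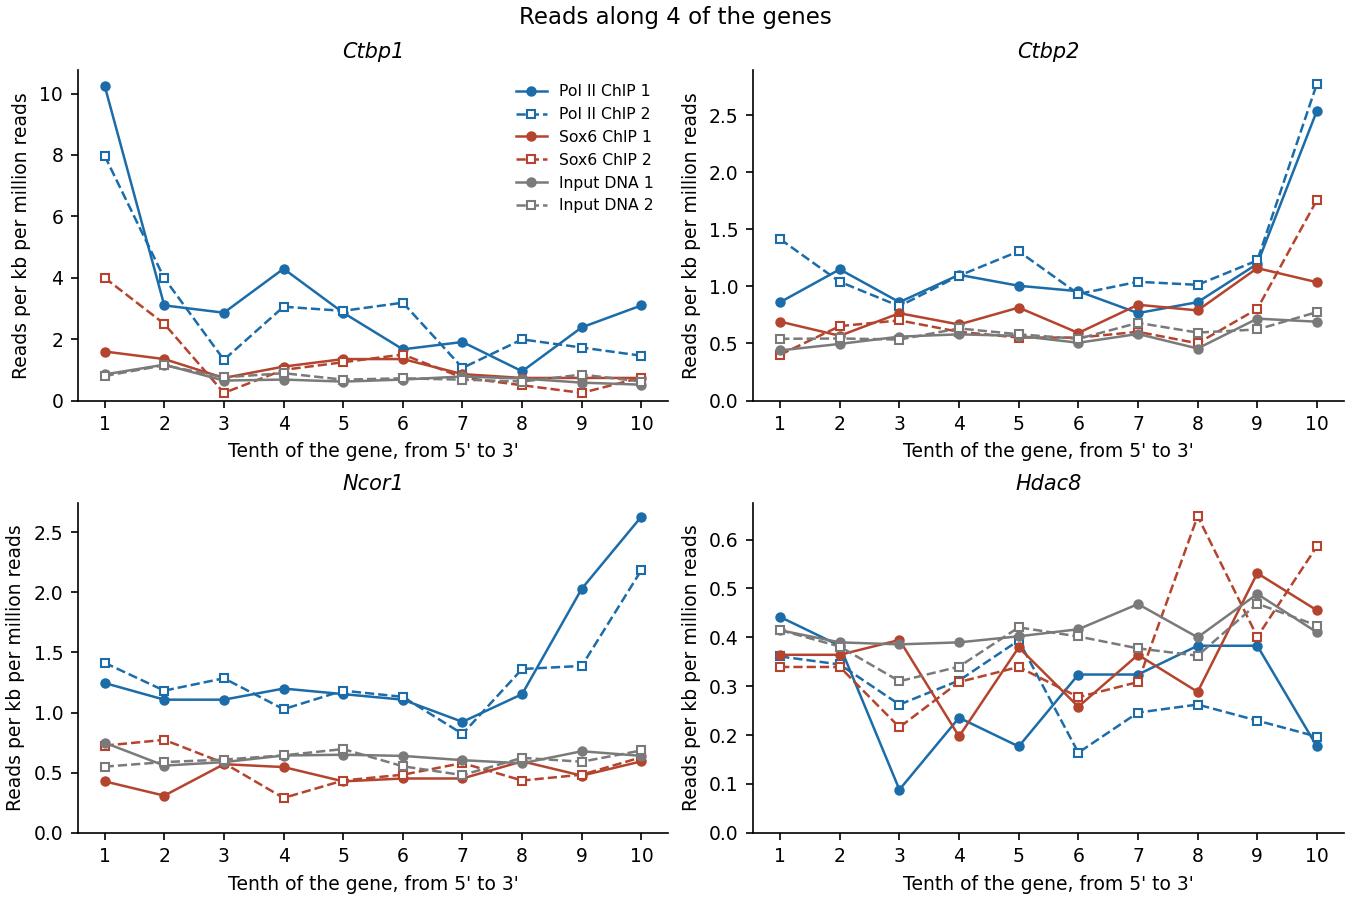
Pol II, Sox6 and input levels (RPKM) in 10 equal parts of Ctbp1, Ctbp2, Ncor1 and Hdac8, numbered from the start to the end of the gene; solid lines with filled circles are replicate 1 and dashed lines with open squares replicate 2. Ctbp1 had its highest Pol II level in the first part (10.3 and 7.97) and Ctbp2 in the last (2.54 and 2.77).

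Deposited Pol II peaks lay in Ctbp1 and Ctbp2 and just upstream of the Ncor1 model. Replicate 1 had a peak of 1841 bp at chr5:33615251-33617091, in intron 1 of Ctbp1, and replicate 2 one of 1681 bp at chr5:33615551-33617231 that overlapped it. Both replicates also had a short peak in intron 2, at chr5:33606651-33606711 and chr5:33606431-33606691. At Ncor1, peaks at chr11:62271711-62271771 and chr11:62271631-62272091 lay 907 and 1027 bp upstream of the model start. The 5′-most annotated start of Ncor1 is at -1209 bp and the Pigl start at -953 bp. The first peak lies inside the outer limits of Ncor1, beside the Pigl start. The second spans both starts, so the peaks cannot be assigned to either gene. Ctbp2 had 3 short peaks in introns 10, 8 and 6 near its 3′ end, none of them in both replicates. Hdac1, Hdac2, Hdac3, Hdac8 and Sin3a held no Pol II peak in either list. Peaks inside the gene model were thus at 2 of the 8 genes in each replicate, beside 11.5% and 15.9% of all genes. Within 1 kb of a start, replicate 1 had a peak centre at 1 of the 8 genes and replicate 2 at 0, beside 8.7% and 12.5% of all genes. When reads were counted in the Pol II peaks alone and divided by gene length, Ctbp1 had 0.906 and 0.691 RPKM, Ctbp2 0.024 and 0.021, the other 6 genes 0, and Actb 27.4 and 33.2.

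A difference of Sox6 from input was not detectable at the model start of any of the 8 genes at this depth. The start windows held between 0 and 7 Sox6 reads. Hdac2 had the most, 7 and 3, and Hdac3 had 5 and 3, while Hdac1 and Sin3a had 5 in replicate 1 and 0 in replicate 2. Ncor1 and Ctbp1 had 3 in each library, Ctbp2 had 2 and 1 and Hdac8 had 1 and 2. The log2 differences from input ran from -1.22 at Sin3a (95% interval -2.71 to 0.26, limma adjusted p = 0.454), which became 1.14 (limma adjusted p = 0.369) at its 5′-most annotated start, to 1.79 at Ctbp2 (95% interval -0.11 to 3.68, limma adjusted p = 0.39), with a median of 0.49 beside 0.42 over all genes. No gene of the 8 was called by limma with a trend or with voom weights, and none had an unadjusted p below 0.05. Annotated starts other than the model start and the 5′-most one were not tested. Of these, a Ctbp2 start 10.7 kb past the model start had the most Sox6 reads. It held 9 and 5 (3.01 and 3.40 RPM) against 20 and 22 of input (0.910 and 0.907 RPM). Over all 21832 genes 0.348% were called higher and 0 lower (169 lower at an unadjusted p of 0.05, 8 lower with voom). Leaving out Sox6 replicate 1, which takes the spread from the inputs, called 3 of the 8 higher and 2 lower, where that setting called 39.9% of all genes higher and 7.93% lower. For scale, Hdac11, a class IV deacetylase gene, has a common Sox6 peak within 20 kb. Its start window held 120 and 80 Sox6 reads against 41 and 59 of input (log2 4.45, SE 0.31, limma adjusted p = 3.16e-07). That level was at the 99.998 percentile of all genes in each Sox6 library, so Hdac11 is an extreme and not a typical gene with a peak.

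Over gene bodies Sox6 exceeded input at Ctbp1, with the same direction but no call at Ctbp2 in the fit without a replicate block. Ctbp1 held 84 and 48 Sox6 reads against 427 and 502 of input, or 1.07 and 1.25 against 0.740 and 0.789 RPKM, and each Sox6 library was above each input. The log2 difference was 0.61 (SE 0.15, 95% interval 0.27 to 0.94, limma adjusted p = 0.0478). It was 1 of 8 genes called higher, and none was called lower, where 5.03% of all 19254 genes were called higher and 1.62% lower. Ctbp2 held 321 and 142 against 1668 and 1988, a difference of 0.37 (SE 0.10, limma adjusted p = 0.0609). It was called in 6 of 15 alternatives, among them the fit with the replicate number as a block (limma adjusted p = 0.0044), in which Ctbp1 was called too (limma adjusted p = 0.0062) and 12.7% of all genes were called higher. Ncor1 had a difference of -0.27 (95% interval -0.50 to -0.03, limma adjusted p = 0.135) that was not called. The other 5 lay between -0.29 at Hdac1 and 0.09 at Hdac2, and the median of the 8 was -0.06 beside 0.17 over all genes. The calls over all genes, 969 higher and 311 lower, became 2193 and 98 with reads far from genes as the scale and 443 and 501 with the median of ratios.

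The Ctbp1 call stood close to the threshold. It was made in 9 of 15 alternatives, with log2 differences from 0.48 to 0.78, and was lost, among others, with the median of ratios (limma adjusted p = 0.0815), without Input 1 (limma adjusted p = 0.567) and without Input 2 (limma adjusted p = 0.222). The reads were not even along the gene. The first 10% of Ctbp1 held 13 of 86 Sox6 reads in replicate 1 and 16 of 51 in replicate 2 (15.1% and 31.4%, at the 88.6 and 99.4 percentiles of the 4853 genes), and the level there was 1.60 and 4.0 RPKM against 0.852 and 0.802 in input. The last 10% of Ctbp2 held 42 of 321 and 35 of 142 (13.1% and 24.6%), at 1.04 and 1.76 RPKM against 0.691 and 0.775 in input. At Ctbp2 replicate 1 was thus close to its input share of 12.3%, and replicate 2 was above its share of 12.8%. Pol II was highest in these stretches of both genes, while Sox6 in replicate 1 was higher in the part of Ctbp2 before the last (1.16 RPKM). The part of Pol II in the Sox6 reads was not tested.

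Deposited Sox6 peaks did not lie in any of the 8 genes. None of the 1066 peaks common to both replicates was in or within 20 kb of one of them, where 4.3% of all genes had such a peak, and none of the peaks of replicate 1 was either (9.61% of all genes). This limit also gave 0 common peaks at Hdac9, which the study names among genes associated with Sox6 peaks. It can thus miss peaks that the study assigned to a gene. The list of replicate 2 had 1, at chr4:129178372-129178431, 14.9 kb past the 3′ end of Hdac1 and inside Gm12979, where 6.64% of all genes had a peak of that list. In the 450 bp around it, the libraries held 0 and 6 Sox6 reads and 5 and 6 input reads. Replicate 1 thus gave a ratio to input of 0 (exact 95% upper bound 8.03, two-sided exact binomial p = 1, a comparison of libraries and not of conditions). Of all peaks of replicate 2, 84.4% were called in replicate 1 by that test, and of all peaks of replicate 1, 67% were called in replicate 2. When reads were counted in the deposited peak interval in place of 450 bp, the shares were 45.6% and 31.2%. The nearest common peak, chr4:129241142-129241201, was 21.2 kb upstream of the Hdac1 start and lay in Lck, 5.54 kb from the Lck start, with 10 and 4 Sox6 reads (3.35 and 2.72 RPM) against 7 and 7 of input (0.319 and 0.289 RPM). With 50 kb in place of 20 kb, it made Hdac1 1 of 8 genes with a common peak, beside 7.1% of all genes.

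No other gene of the 8 had a Sox6 peak of any list within 50 kb, and the sequences of these peaks near Hdac1 are shown for that reason, from the plus strand of mm9. A Sox site or an E-box would stand in capitals, and neither interval holds one.
Hdac1, peak of replicate 2: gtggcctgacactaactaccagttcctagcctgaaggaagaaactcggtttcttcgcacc
Hdac1, common peak in Lck: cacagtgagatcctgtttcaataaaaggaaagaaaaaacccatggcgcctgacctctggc
Of the 386 peaks of replicate 2 with this length of 60 bp, 28.0% held ACAAAG or ACAATG on either strand and 28.8% an E-box. Of the 38 common peaks of this length the shares were 28.9% and 18.4%.

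To see whether a weaker Sox6 site had been missed by the peak lists, the 450-bp window with the most Sox6 reads in or within 20 kb of each gene was taken from both libraries together. It held 12 reads at Ctbp1 (9 and 3, with its centre at -6.57 kb from the start), 9 at Hdac2 (7 and 2) and Sin3a (7 and 2), 8 at Hdac1 (7 and 1) and Ctbp2 (4 and 4), 7 at Ncor1 (6 and 1), 6 at Hdac8 (3 and 3) and 5 at Hdac3 (1 and 4). The same window at the 1066 common peaks held a median of 24 reads and at least 8. At Ctbp1, 23 of the common peaks were at or below its count, and at each other gene no more than 4. These windows were picked as maxima, so their counts have no test. The Ctbp1 window had 3.01 and 2.04 RPM of Sox6 against 0.137 and 0.412 RPM of input. The scanned lengths ran from 58.0 kb at Hdac3 to 260.7 kb at Hdac8, and maxima of other genes were not taken. The counts therefore cannot decide whether a weaker site was missed.

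**Figure D3:**
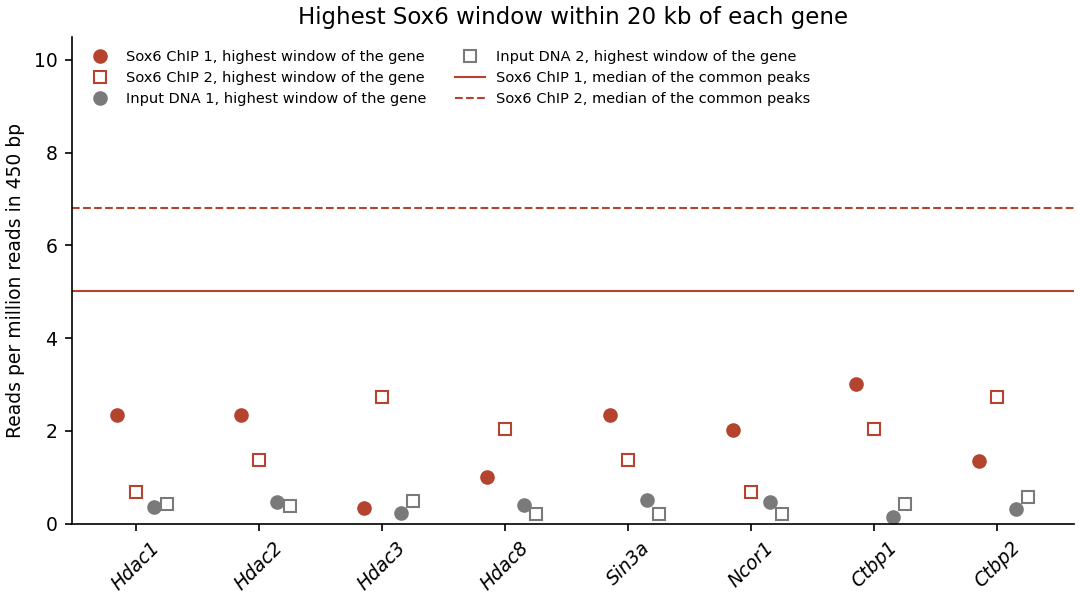
Sox6 level (RPM in 450 bp) in the window with the most Sox6 reads at each of the 8 genes, by replicate, with the median of the common peaks in each library as lines (5.02 and 6.81). No gene reached those medians, and the highest levels were 3.01 in replicate 1 (Ctbp1) and 2.72 in replicate 2 (Hdac3 and Ctbp2).

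Beside the 8 genes, 58 other genes of deacetylase complexes, of the Groucho corepressors and of the histone acetyltransferases were examined as lists. Pol II at the start was called higher than input for 45 of the 58 and lower for none, where 40.9% of all genes were called higher, with a median log2 difference of 2.14 beside 0.76 over all genes. Over bodies it was called higher for 46 and lower for 1, where 37.6% of all genes were called higher, with a median of 1.10 beside 0.10. With the median of ratios the counts were 24 higher and 2 lower at starts and 41 and 4 over bodies, where 14.5% and 32.7% of all genes were called higher. Of the Sin3 complex 14 of 16 genes were higher at the start, led by Sap30 (5.05) and the histone chaperone Rbbp7 (4.03), and 12 of 16 over the body, while Fam60a was lower (-0.93, but 0.42 and not called when scaled to reads far from genes). Of the NuRD complex 6 of 11 were higher at the start and 9 of 11 over the body, from Mbd2 (0.99), which binds methylated DNA, to the remodeling ATPase Chd4 (2.58) and Cdk2ap1 (3.16). Of the CoREST complex 6 of 9 were higher at the start and 9 of 9 over the body, from Phf21a (0.44) to Hmg20b (2.24).

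Of the partners of Hdac3 in the NCoR complex, 4 of 4 genes were higher at the start and 3 of 4 over the body. For these lists too, the shares over all genes were 40.9% at the start and 37.6% over the body. Tbl1xr1, which with Tbl1x forms the WD-repeat part of the complex, had 3.07 at the start and 1.35 over the body, and Gps2 had 2.66 and 3.63. The Groucho corepressors were higher in 5 of 6 at the start and 3 of 6 over the body, where the median was 0.17 and turned to -0.05 with the median of ratios. The histone acetyltransferases, which do the reverse of the deacetylases, were higher in 10 of 12 in both places, with Kat5 at 3.50 and 2.81. Sox6 was called at 0 of the 58 start sites by limma with a trend or with voom weights. The fit with a trend called 0.348% of all genes higher there. At an unadjusted p of 0.05, 10 of the 58 were higher and 0 lower, beside 2839 and 169 of 21832 over all genes. Over bodies Sox6 was called higher at 2 of 58, namely Tle3 (0.80, limma adjusted p = 0.0345) and Kat5 (1.32, limma adjusted p = 0.0377), beside 5.03% of all genes, and 2 of 58 genes (3.45%), Sin3b and Ncoa1, had a common Sox6 peak within 20 kb, near the share over all genes. For comparison, the class II gene Hdac4 had body differences of 1.2 for Pol II (limma adjusted p = 6.43e-06) and 0.51 for Sox6 (limma adjusted p = 0.0211), and Hdac9 one of -1.12 for Pol II (limma adjusted p = 1.33e-05), which became 0.23 and was not called when scaled to reads far from genes.

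**Figure D4:**
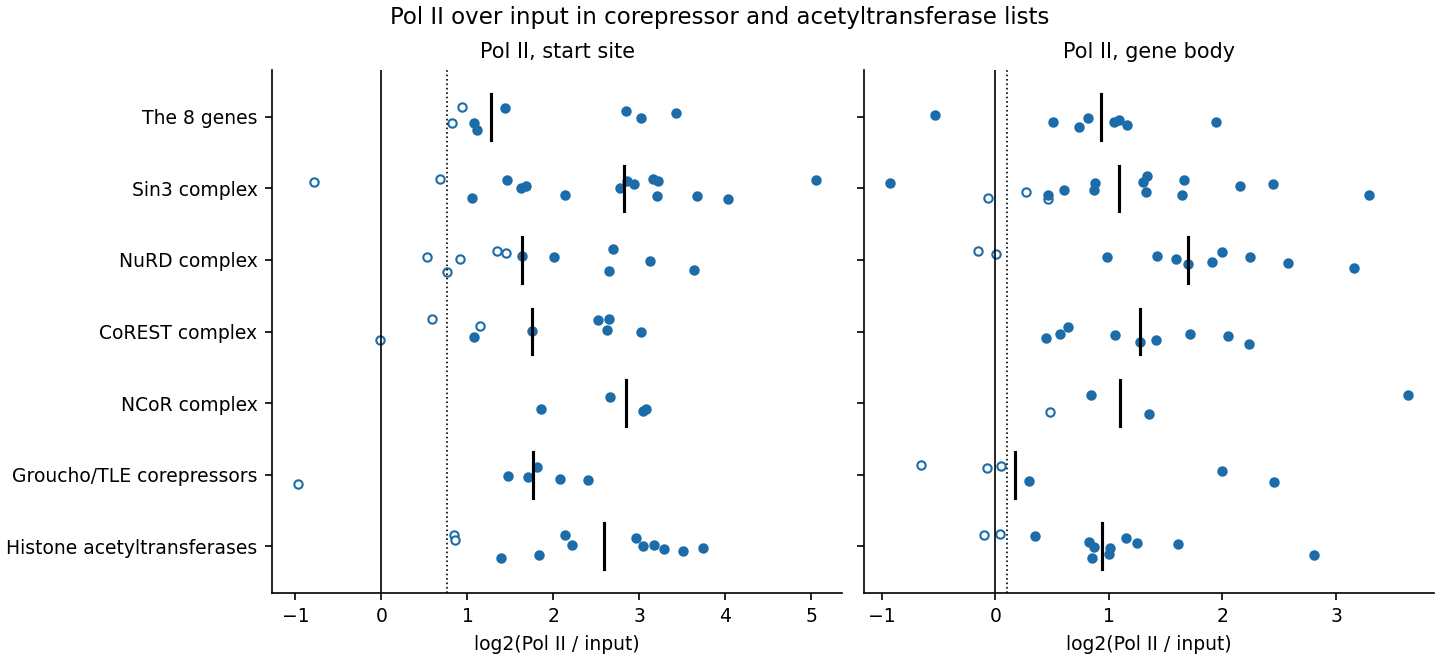
Log2 of Pol II over input at the start window and over the body for the genes of each list and for the 8 genes; each point is 1 gene, filled where limma's adjusted p was below 0.05, the black tick is the median of the list and the dotted line the median of all genes. Most points lay to the right of that line, and vertical spread within a list is for display alone.

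The genes most like each of the 8 were found by the distance over 12 log2 levels, the start window and the body in 6 libraries, among 18857 genes. The nearest was Kdm5b for Hdac1 (distance 0.849), Mtmr14 for Hdac2 (0.858), Foxj2 for Hdac3 (0.770) and Fgd4 for Hdac8 (0.991). For the corepressors it was Fam13b for Ncor1 (0.663), Cnr1 for Ctbp1 (0.930), Zfp664 for Ctbp2 (1.31) and Rnaseh2a for Sin3a (0.867). None of the 8 was the nearest gene of another of the 8, which says little where 18857 genes could be the nearest.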

How the data were processed

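Sox6, Pol II and input libraries, 2 of each, were sequenced from mouse primary myotubes with single-end reads. The authors aligned them with Bowtie 0.12.5 to mm9, kept reads with a unique position, and ran the SISSRs peak caller with each experiment's own input as control, and common Sox6 peaks were those of both replicates that lay close together. The deposited files hold positions of reads and peaks and no other unit, with replicates kept apart except in the common list, and the peak score columns were not used. The read files came in BED form and the peak files in GFF form.

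From these, 5′ ends of reads were counted in gene windows with Python 3.11.15, numpy 2.4.6 and pandas 2.3.3. Gene models were the longest basic GENCODE transcript on mm9 of each of 22921 genes whose name has a curated RefSeq transcript. Reads in windows of 1000 bp on either side of a start and from 1000 bp past it to the gene end were divided by the library total after 0.5 reads were added, and log2 values of ChIP and input were compared with limma 3.58.1 (trend, R 4.3.3, 2 libraries against 2) where the 4 libraries held at least 10 reads together, with Benjamini-Hochberg adjustment at 0.05 over all genes. Bodies were tested for models of at least 2000 bp. These tests have no fit for counting error of single reads, which is large at 0 to 24 reads. Counts were also simulated at the real library totals, with each gene's mean taken from input and the same spread for every gene. Real libraries can vary more, so the recoveries hold for those settings alone. On simulated counts with 50 genes raised at each fold, Pol II at starts recovered 0 genes at 2-fold, 16 at 4-fold and 48 at 8-fold, Sox6 at starts 4, 29 and 48, Pol II over bodies 17, 47 and 50, and Sox6 over bodies 11, 48 and 50. Of the genes left unchanged, 13 were called higher and 1 lower for Sox6 at starts, and at most 2 in either direction elsewhere. Their median log2 difference was 0.17 for Pol II and 0.16 for Sox6 at starts, and 0.02 and 0.01 over bodies. The added 0.5 reads thus lean ratios at low counts upward. A peak of one Sox6 replicate was tested in the other with an exact binomial test on reads in 450 bp. The 8 genes, the gene lists, the markers and the reference genes were chosen with earlier results of these data known. From the lists, 1 gene is not reported here and was left out of their counts. Of each list the text names at most 2 called genes with the largest and 2 with the smallest difference. Named besides were Actb, Hdac4, Hdac9 and Hdac11, genes that overlap one of the 8 or start within 1 kb of it, the gene with the smallest distance to each, and genes with a peak. Repeated positions were 2.96% to 7.88% of reads and were kept. Reads of Input 1 were 36 bp long and the others 39 bp. Matplotlib 3.10.9 drew the plots.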

Additional observations from a re-analysis of the deposited data

How the results depend on the processing

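The limits are set by depth, since a start window held at most 24 ChIP reads, and by scale, since library totals, reads far from genes and the median of ratios place 0 differently. Of the values of the 8 genes under the alternatives, 118 of 120 for Pol II over bodies, 100 of 134 for Pol II at starts, 115 of 132 for Sox6 at starts and 95 of 120 for Sox6 over bodies kept their direction and their side of the threshold. The cause of the changes that follow was not tested, except that leaving out a ChIP library takes the spread from the inputs and assumes that the lone library varies like them.

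For Pol II at starts, 8887 genes were higher, and 13358 with 2 reads added and 3163 with the median of ratios, where 2 of the 8 genes were called. The 298 lower genes became 6 with 2 reads added, 2887 with 0.5 RPM added, 1245 with voom, 0 scaled to reads far from genes, 6890 with the median of ratios, 12 and 972 with 500 bp and 2 kb on either side, and 15 in the downstream kilobase, and 0 to 3109 without 1 library, with 3 to 7 of the 8 genes higher. The median of ratios gave -0.47 at Hdac1, -0.63 at Hdac2, -0.49 at Hdac3, -0.75 at Hdac8 and -0.13 at Sin3a. Hdac8 was -0.22 with 2 kb and ran from -0.17 to 1.81 without 1 library, the lowest without Pol II 1. Over bodies, scaling to reads far from genes gave 12423 higher and 345 lower genes, 0 of the 8 lower and 0.83 at Hdac8, and leaving out 1 library gave 3103 to 6794 lower genes.

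For Sox6 at starts, the 76 higher genes became 10 with 2 reads added, 0 with 0.5 RPM, 738 (and 1 lower) with no filter, 201 (and 8 lower) with voom, 19 and 10 with the other scales, 415 and 13 with 500 bp and 2 kb, 355 in the downstream kilobase, and 0 to 8674 (and 0 to 1852 lower) without 1 library, where 0 to 3 of the 8 were higher and 0 to 2 lower. Hdac1 was 0.46 with 2 reads added and 0.40 with 500 bp, and -1.85 to 0.58 without 1 library. Hdac8 was 0.61 with 2 reads added, 0.040 scaled to reads far from genes, 0.0049 with 5′ ends moved 75 bp, 1.76 in the downstream kilobase and -1.02 to 0.74 without 1 library. Hdac3 was -0.0011 with the median of ratios and -0.23 with 500 bp, and Sin3a 1.14 at its 5′-most annotated start.

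For Sox6 over bodies, the 969 higher genes became 1562 with 2 reads added, 16 (and 1 lower) with 0.5 RPM, 2193 (98 lower) scaled to reads far from genes, 443 (501 lower) with the median of ratios, 543 without windows at Sox6 peaks, and 163 to 6791 (34 to 3056 lower) without 1 library. Of the 8 genes, 2 were higher with 2 reads added, with voom and scaled to reads far from genes, 0 with 0.5 RPM, the median of ratios, moved 5′ ends and bodies without windows at Sox6 peaks, and 0 to 3 (0 to 1 lower) without 1 library. Hdac3 was -0.0085 with 0.5 RPM, -0.13 with voom, -0.11 with the median of ratios, -0.0048 with repeated positions counted once and -0.40 to 0.43 without 1 library. Hdac8 was 0.044 and Sin3a 0.025 scaled to reads far from genes, and Hdac2 -0.042 with the median of ratios and -0.00035 to 0.17 without 1 library.

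Peaks within 50 kb gave 1 of the 8 genes for the common list and 1 for replicate 1, beside 7.1% and 15.4% of all genes. Peaks inside the gene model gave 0 for replicate 2, beside 3.31% of all genes. Pol II peaks within 2 kb of a start gave 2 genes in each replicate. The median Pol II level of the 8 genes, 1.21 RPKM, became 0 when counting was limited to replicate 2's Pol II peaks.

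Replicate numbers were also used as a block, since the study called peaks with each experiment's own input. With 2 pairs, the correlations of same-numbered deviations, from -0.053 to 0.045, do not show that the numbers pair the libraries. With the block, 132 genes were lower for Pol II at starts and Hdac1 was not called (limma adjusted p = 0.0709, 5 of the 8 genes called). For Sox6, 332 genes were higher at starts, and over bodies 2437 were higher and 1049 lower, with 2 of the 8 genes called, Ctbp1 and Ctbp2 (limma adjusted p = 0.0044).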
